A study of Mus musculus with 6 samples.

Results

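The interleukin-1 genes described here are Il1a and Il1b, which encode the ligands IL-1α and IL-1β, and Il1rn, which encodes the IL-1 receptor antagonist. They are 3 of the 1834 genes with deposited values from mouse liver, taken by symbol, and all 3 were in the table. The control group was 3 libraries from liver of wild-type mice given AAV-GFP, an adeno-associated virus that carries green fluorescent protein. The other group was 3 libraries from liver given AAV-Ly6d, with the genotype stated as Ly6d overexpression. Ly6d encodes a surface protein of the Ly6 family, held to the membrane by a lipid anchor, and the title names steatotic liver disease of metabolic origin (MASLD) as the setting. Both groups were on the same diet. The diet, strain, sex, age, vector promoter and dose are not stated in the labels. No label says whether each library is its own mouse, so the spread and p-values given here describe these libraries and may be technical.

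IL-1α and IL-1β bind the same receptor, IL1R1, and start an inflammatory signal through MyD88 and NF-kB. The receptor antagonist occupies that receptor without starting the signal, so the balance of ligands and antagonist sets how far the receptor is engaged. In liver the ligands come mainly from macrophages and other leukocytes, IL-1β being made as a precursor that needs cleavage, while hepatocytes respond to IL-1 with acute phase proteins and can make the antagonist themselves. RNA levels do not show cleavage or secretion.

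The ligand RNAs were lower and the antagonist RNA was higher in AAV-Ly6d, and the ligand share of the reads of the 3 genes was below every control library in each AAV-Ly6d library. Mean normalised read counts of Il1a were 50.7 ± 5.86 for AAV-GFP and 22.4 ± 8.91 for AAV-Ly6d, and those of Il1b were 72.4 ± 42.8 and 22.9 ± 7.23. For Il1rn they were 82.1 ± 10.7 and 156 ± 27.9 in the same order (SD, n = 3 each throughout). These genes were taken up because of how they differed between these same libraries, and the ratio of ligands to antagonist belongs to the same contrast. Their values are therefore given as a description, without a test.

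Most genes of the table, and not only these, separated the groups. Of 1780 tested genes, 84.5% had groups that did not overlap, 35.2% with higher and 49.3% with lower values in AAV-Ly6d, and the median log2 fold change was -0.67. This median was -0.40 without AAV-GFP replicate 2, whose median ratio factor of 1.36 stood above the 1.02 and 1.03 of the other controls. That all 3 interleukin-1 genes had groups without overlap on the deposited scale is thus near what most genes of the table showed. By log2 fold change, 25.2% of tested genes lay below Il1a, 17.4% below Il1b and 85.4% below Il1rn. The recovered reads of the table summed to between 3248078 and 4359932 per library, and how deep the whole libraries were is unknown. Ly6d itself, the gene carried by the vector, averaged 82.7 ± 89.3 for AAV-GFP and 2751 ± 826 for AAV-Ly6d.

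All 3 genes lie on mouse chromosome 2 (GRCm38), the ligands side by side and the antagonist far from them. Il1a (ENSMUSG00000027399) runs from 129299610 to 129309972 and Il1b (ENSMUSG00000027398) from 129364570 to 129371139, both on the minus strand with 54.6 kb between them. Il1rn (ENSMUSG00000026981) runs from 24336853 to 24351494 on the plus strand. Within 1000 kb of Il1a, Il1b was the only other gene of the table, and within the same distance of Il1rn it was Pax8, a gene chosen here by position. Both ligand genes overlap a noncoding gene on the opposite strand, Gm14023 at Il1a and Il1bos at Il1b. The strand setting of the read counting is not stated, so reads from either partner cannot be told apart. No annotated gene overlaps Il1rn.

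The promoter windows of the ligands are shown because these genes were lower together, and those of Il1rn because it was higher. Each window holds 250 bases before and 50 after an annotated start, 5′ to 3′ on the strand of the gene, from RefSeq on GRCm38.p6. All 3 symbols matched. Il1rn has 3 windows, of which the downstream ones overlap, and the first and the last are shown. Capitals mark matches on either strand to 5 motifs: GGGNN followed directly by TTTCC for NF-kB, TGANTCA for AP-1, TTNNGNAA for C/EBP, GAGGAA for PU.1 and TATAAA for the TATA box.
Il1a, chr2:129309923-129310222, minus strand: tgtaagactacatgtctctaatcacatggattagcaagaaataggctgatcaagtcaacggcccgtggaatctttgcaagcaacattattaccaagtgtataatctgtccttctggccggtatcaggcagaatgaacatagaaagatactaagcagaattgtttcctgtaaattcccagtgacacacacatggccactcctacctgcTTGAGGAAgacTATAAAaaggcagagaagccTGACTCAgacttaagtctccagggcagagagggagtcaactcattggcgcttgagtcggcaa
Il1b, chr2:129371090-129371389, minus strand: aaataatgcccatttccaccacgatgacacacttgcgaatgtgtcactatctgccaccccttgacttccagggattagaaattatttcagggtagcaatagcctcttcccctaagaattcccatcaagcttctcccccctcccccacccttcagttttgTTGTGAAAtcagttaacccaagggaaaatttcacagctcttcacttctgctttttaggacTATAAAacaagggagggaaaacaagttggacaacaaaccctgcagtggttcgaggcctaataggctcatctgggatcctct
Il1rn first window, chr2:24336610-24336909, plus strand: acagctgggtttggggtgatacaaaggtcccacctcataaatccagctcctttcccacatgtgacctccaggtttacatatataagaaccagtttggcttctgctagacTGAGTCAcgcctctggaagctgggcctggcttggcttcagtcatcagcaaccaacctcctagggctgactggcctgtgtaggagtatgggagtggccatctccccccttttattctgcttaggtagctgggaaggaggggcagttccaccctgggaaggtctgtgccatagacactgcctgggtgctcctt
Il1rn last window, chr2:24345121-24345420, plus strand: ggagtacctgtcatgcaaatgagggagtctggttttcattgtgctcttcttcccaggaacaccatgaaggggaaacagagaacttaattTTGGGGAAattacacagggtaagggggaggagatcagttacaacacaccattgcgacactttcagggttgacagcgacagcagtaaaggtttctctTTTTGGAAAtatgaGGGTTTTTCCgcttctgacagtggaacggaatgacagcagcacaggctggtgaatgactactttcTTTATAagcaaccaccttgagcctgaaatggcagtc

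Both ligand windows carried TATAAA just upstream of the start, TATAAA beginning at position -32 in Il1a and at -31 in Il1b. Of all 32851 windows, 13.6% held this motif on either strand. The window of Il1a also held TTGAGGAA from -43, which contains the GAGGAA match, and TGACTCA from -12. That of Il1b held TTGTGAAA from -91. In the last Il1rn window GGGTTTTTCC, a match to the NF-kB motif, began at -51, and 1.63% of all windows held such a match. The same letters lie after the start in the overlapping middle window. The C/EBP motif matched TTGGGGAA from -161 and, in overlapping positions, TTTTGGAA from -65 and TTTGGAAA from -64 in the last window, which also held the TATA motif on the other strand from 15 bases after the start. The first Il1rn window held only TGAGTCA, from -141. The shares of all windows with a match were 7.81% for AP-1, 40.7% for C/EBP and 28.3% for PU.1. A match describes letters in these windows and does not show that a factor was bound. A window without a match may still hold a site that these patterns do not spell. The deposited values are one per gene, so they do not say from which start the Il1rn reads came.

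Il1a, the ligand that is active without cleavage, was lower in every AAV-Ly6d library. Its normalised read count was 57.1, 49.5 and 45.6 in AAV-GFP replicates 1, 2 and 3 and 17.5, 16.9 and 32.6 in the AAV-Ly6d replicates. The control libraries lay close together, and AAV-Ly6d replicate 3 was the nearest to them. The lowest control library held 1.40 times the highest AAV-Ly6d library. The ratio of the means was 2.27 in favour of AAV-GFP, and the difference was -1.20 on the log2(value + 1) scale. These values rest on 159 reads in AAV-GFP and 65 in AAV-Ly6d.

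Il1b, the ligand released after inflammasome activation, was lower on average, but 1 control library stood level with the AAV-Ly6d libraries. Its value was 114, 74.2 and 28.7 in AAV-GFP and 14.6, 27.9 and 26.1 in AAV-Ly6d. AAV-GFP replicate 3, with 34 reads, held 1.03 times the highest AAV-Ly6d library, replicate 2, with 28 reads. The means differed by a ratio of 3.17, and the log2 difference was -1.47. Dropping control replicate 1 gave -1.04, and dropping control replicate 3 gave -2.02. The spread among the control libraries was therefore wider for Il1b than for Il1a or Il1rn, with an SD of 42.8 about a mean of 72.4.

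Il1rn, which encodes the antagonist, was higher in every AAV-Ly6d library. The values were 75.5, 76.4 and 94.5 in AAV-GFP and 182, 127 and 161 in AAV-Ly6d. AAV-Ly6d replicate 1 was highest and AAV-GFP replicate 3 was the highest control. Between the groups, the lowest AAV-Ly6d value was 1.34 times the highest control value, and the ratio of the means was 1.91. The log2 difference was 0.91, and 261 reads in AAV-GFP stood against 462 in AAV-Ly6d.

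**Figure D1:**
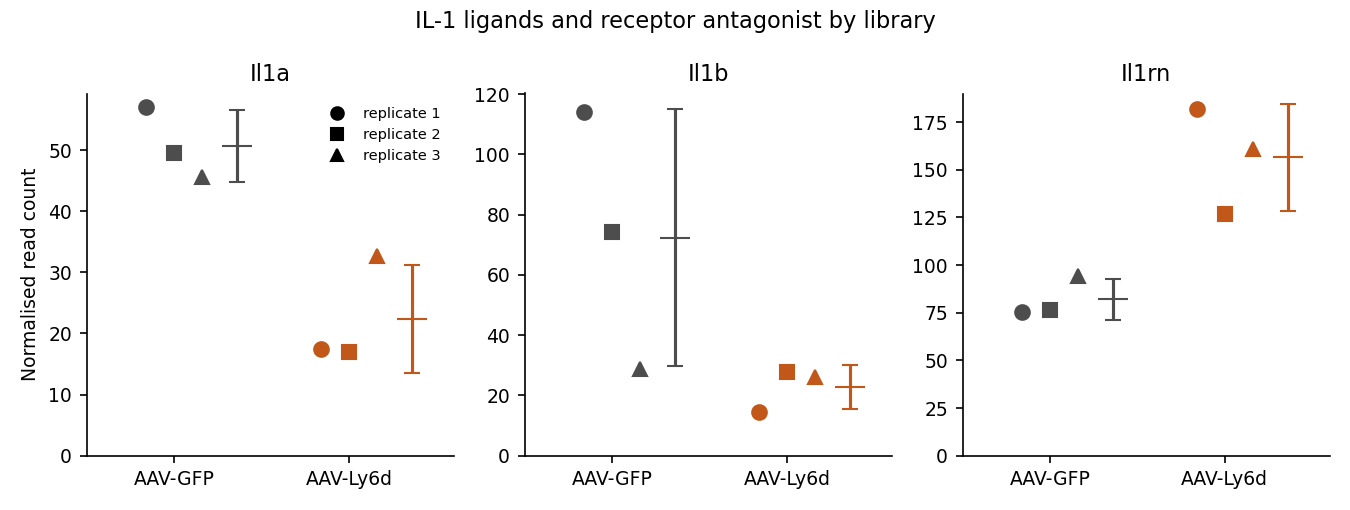
Normalised read count (y axes, linear from 0) of Il1a, Il1b and Il1rn in each AAV-GFP and AAV-Ly6d library; symbols are replicates, horizontal marks and bars are the mean and SD of 3 libraries. Il1a and Il1b sit lower and Il1rn sits higher in AAV-Ly6d, and Il1b in AAV-GFP replicate 3 (28.7) is next to the highest AAV-Ly6d value (27.9).

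Whether a single gene separated the groups depended on how the libraries were scaled. Rescaling by the median ratio over the table moved the median log2 fold change of all tested genes from -0.67 to -0.33. On that scale Il1a ran from 36.4 to 55.7 in AAV-GFP and from 18.5 to 36.4 in AAV-Ly6d, and the ranges touched. Il1b ran from 27.9 to 111 and from 17.0 to 30.5, so its groups overlapped as well. Il1rn stayed apart on that scale, at 56.2 to 91.9 against 138 to 212. Per 1000000 reads of the table, a scale chosen after the data were seen, both ligands stayed apart and Il1rn overlapped, with 20.6 to 32.5 in AAV-GFP and 31.8 to 42.9 in AAV-Ly6d. The direction of the mean difference was the same on the 3 scales for each gene.

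Scaling cancels when ligands and antagonist are compared inside a library. Of the reads of the 3 genes, Il1a and Il1b made up 69.4% of 255 in AAV-GFP replicate 1 (95% exact Clopper-Pearson interval 63.4 to 75.0). In AAV-GFP replicate 2 they were 61.8% of 186 reads (54.4 to 68.8), and in replicate 3 they were 44.0% of 200 reads (37.0 to 51.2). The AAV-Ly6d replicates held 15.0% of 220 reads (10.6 to 20.4), 26.2% of 172 (19.8 to 33.4) and 26.7% of 202 (20.8 to 33.4). The groups did not overlap. This follows from both ligands being lower and Il1rn higher without overlap on the deposited scale, so it adds no support of its own. No interval of an AAV-Ly6d library reached the interval of a control library, which describes the contrast by which the genes were chosen. These intervals cover counting error only, and reads without molecular identifiers are not independent molecules. The mean share was 58.4% ± 13.0 in AAV-GFP and 22.6% ± 6.62 in AAV-Ly6d. AAV-GFP replicate 3, where Il1b was lowest among the controls, also had the lowest control share.

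**Figure D2:**
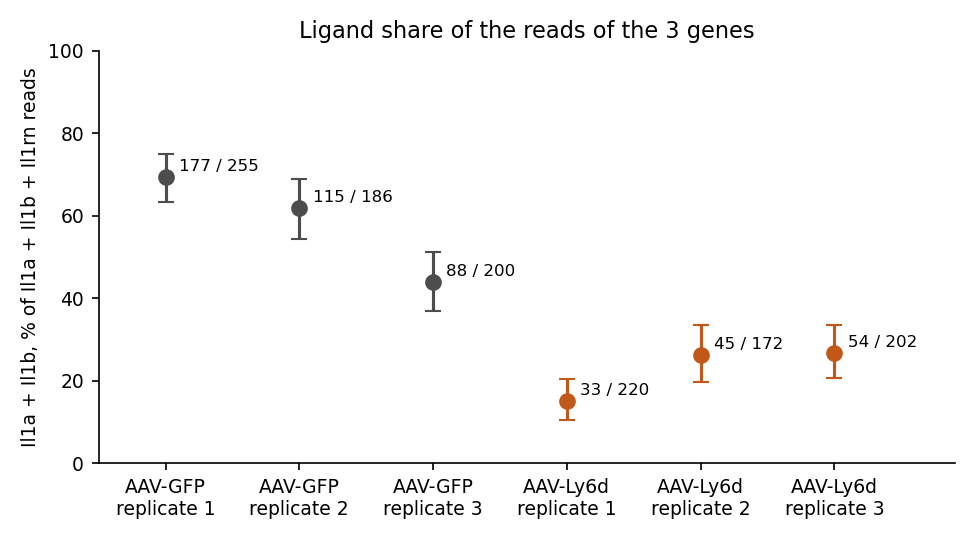
Share of Il1a and Il1b reads among the reads of Il1a, Il1b and Il1rn (y axis, percent) in each library, with 95% Clopper-Pearson intervals and the read numbers beside each point. The control libraries lie at 44.0% to 69.4% and the AAV-Ly6d libraries at 15.0% to 26.7%.

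As a ratio, the summed ligands stood at 2.27, 1.62 and 0.786 to 1 of Il1rn in AAV-GFP and at 0.176, 0.354 and 0.365 to 1 in AAV-Ly6d. The mean log2 ratio was 0.51 ± 0.78 in AAV-GFP and -1.82 ± 0.59 in AAV-Ly6d, a difference of -2.33, which is a 5.02-fold lower ratio. Each ligand gave a similar difference alone, -2.17 for Il1a and -2.43 for Il1b. Leaving out any 1 library kept the difference for the summed ligands between -2.76 and -1.99. Il1a over Il1rn was the tighter measure, at 0.482 to 0.756 in the control libraries and 0.0963 to 0.203 in AAV-Ly6d. Il1b over Il1rn ranged from 0.304 to 1.51 and from 0.0802 to 0.220.

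Levels of different genes were compared per kilobase of the longest annotated transcript, 1974 bases for Il1a, 1356 for Il1b and 2554 for Il1rn. In AAV-GFP the means per kilobase were 53.4 ± 31.5 for Il1b, 32.2 ± 4.20 for Il1rn and 25.7 ± 2.97 for Il1a. The range of Il1b over the control libraries spanned both other genes, so its place in that order is not fixed. In AAV-Ly6d the order was Il1rn with 61.3 ± 10.9, Il1b with 16.9 ± 5.33 and Il1a with 11.3 ± 4.51, and the last 2 overlapped. The ligands summed per kilobase were 1.20 to 3.83 times Il1rn in the control libraries and 0.276 to 0.588 times in AAV-Ly6d. Which of them was more abundant in a library depended on the length used. By reads alone AAV-GFP replicate 3 had 88 ligand and 112 antagonist reads. Il1rn has 6 annotated transcripts, and its exons together cover 5535 bases. Per base covered by any exon the ratio was 2.23 to 6.51 in AAV-GFP and 0.503 to 1.04 in AAV-Ly6d. The difference of the log2 ratio between the groups was -2.35 per longest transcript and -2.33 per exon base.

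The balance between the ligands was not separated by group. Il1b made up 66.7%, 60.0% and 38.6% of the ligand reads in AAV-GFP and 45.5%, 62.2% and 44.4% in AAV-Ly6d. The group means were 55.1% ± 14.6 and 50.7% ± 9.99, and the ranges overlapped.

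Few other genes of the interleukin-1 pathway were in the table. Of 120 pathway genes in 6 lists, 8 were tested, 2 rose, 1 fell and 5 did not pass in limma (threshold 0.05 after Benjamini-Hochberg adjustment). Among all tested genes 43.9% passed, 15.9% that rose and 28% that fell. No pathway or marker gene named here passed without AAV-Ly6d replicate 1, and 1 of 14 calls was made without AAV-Ly6d replicate 3. After rescaling by the median ratio, 69.4% of the calls over the table were higher in AAV-Ly6d, against 36.2% on the deposited scale. None of the 7 other interleukin-1 family ligands (the list runs from Il18 and Il33 to the interleukin-36 genes) and none of 18 signalling genes below the receptor, such as Myd88 and Irak4, were among the 1834, so they were not analysed here.

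Il1r1, the receptor that ligands and antagonist share, was the 1 tested gene of 9 receptors and decoys. Its value was 893, 801 and 1474 in AAV-GFP and 3950, 1295 and 924 in AAV-Ly6d. AAV-Ly6d replicate 1 stood far above the other libraries, while the other two lay within the control range. The log2 fold change was 0.72 (SE 0.51, adjusted p = 0.196 in limma) and 0.10 without AAV-Ly6d replicate 1. That library also had the highest Il1rn and the lowest Il1b value.

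Casp12, a caspase related to the IL-1β-cleaving caspase-1, was the 1 tested gene of 23 for processing and release. It held 36.8, 63.5 and 37.1 in AAV-GFP and 9.72, 21.9 and 18.5 in AAV-Ly6d, without overlap. It fell by 1.43 on the log2 scale (SE 0.44, adjusted p = 0.0420 in limma), and the call was lost in each of the 6 fits that left out 1 library.

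Of 35 NF-kB feedback and inflammatory target genes 3 were tested, and 1 rose. Bcl3, an IκB family member that modulates NF-kB, held 419, 213 and 280 in AAV-GFP and 973, 556 and 438 in AAV-Ly6d. It rose by 1.08 (SE 0.36, adjusted p = 0.0464 in limma), though AAV-Ly6d replicate 3 was only 1.05 times the highest control library. The call of Bcl3 was lost in each of the 6 fits that left out 1 library, and in 10 of 16 alternative fits in all. Socs3, a feedback inhibitor of cytokine receptor signalling, did not pass, with 88.2 ± 54.4 in AAV-GFP and a log2 fold change of 1.65 (adjusted p = 0.0519 in limma). It was 0.93 without AAV-GFP replicate 2, which held 25.8 against 126 and 113 in the other control libraries. Csf1, the macrophage growth factor gene, did not pass either (-0.65, adjusted p = 0.0631 in limma). Among the 16 alternative fits Socs3 passed in 3 and Csf1 in 2.

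Acute phase genes of hepatocytes, which IL-1 and IL-6 are known to induce, were represented by 3 of 28. Hamp, which encodes the iron hormone hepcidin, rose by 1.77 (SE 0.38, adjusted p = 0.0324 in limma), a call lost on leaving out any single AAV-Ly6d library. Its values were 5130, 2529 and 1652 in AAV-GFP and 11352, 9684 and 7813 in AAV-Ly6d. The secreted proteins Itih3 and Hpx, a heme carrier, had log2 fold changes of 0.47 and 0.47 and did not pass (adjusted p = 0.0637 and 0.0811 in limma). Itih3 passed in 3 of the alternative fits and Hpx in 1. Hpx overlapped between the groups. Saa1, Saa2 and Lcn2, strong targets of IL-1 in hepatocytes, were not among the 1834.

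Markers of liver cell types were counted in the same fit. Mrc1, a mannose receptor of Kupffer cells and also of sinusoidal endothelium, was the 1 tested gene of 13 Kupffer cell markers. It held 1440, 1472 and 1230 in AAV-GFP and 500, 860 and 667 in AAV-Ly6d, without overlap, and fell by 1.06 (SE 0.23, adjusted p = 0.0324 in limma), a call lost without AAV-GFP replicate 1 or AAV-Ly6d replicate 1 or 3. All 4 tested genes of 8 listed as endothelial markers fell. Their summed value was 3137 to 5205 in AAV-GFP and 1162 to 1577 in AAV-Ly6d. Of 5 tested stellate cell markers of 8, 4 fell and 1 did not pass, with sums of 2326 to 4060 and 695 to 1493. Of all tested genes 28% fell, and 49.3% were lower without overlap. None of these marker calls was made without AAV-Ly6d replicate 1, and Kdr alone was called when replicate 3 of that group was left out. In liver homogenate, fewer cells of a type and less RNA per cell cannot be told apart.

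Among the named markers, the scavenger receptor genes Stab1 and Stab2 fell, with log2 fold changes of -1.51 and -1.30, as did the VEGF receptor gene Kdr (-1.88) and the clotting factor gene Vwf (-2.15). The stellate genes Reln, Col3a1, Hgf and Lrat fell as well, with -1.54, -1.48, -1.72 and -1.75. The hepatocyte genes Hnf4a and Apoa1 rose by 0.65 and 1.12. Apoa1 was at 0.69 without AAV-GFP replicate 2, and its call was lost in the other 5 fits that left out 1 library. For Hnf4a 5 of these 6 fits lost the call. Serpina1a, which has near-identical copies that may share reads, did not pass (0.41, adjusted p = 0.0669 in limma). It passed in 3 of the alternative fits. Of the 6 pan-leukocyte markers, the 11 of monocytes and recruited macrophages, the 12 of neutrophils, the 8 of dendritic cells and the 8 of lymphocytes, 0 were among the 1834 genes. The part of any cell type in the ligand values was not tested.

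**Figure D3:**
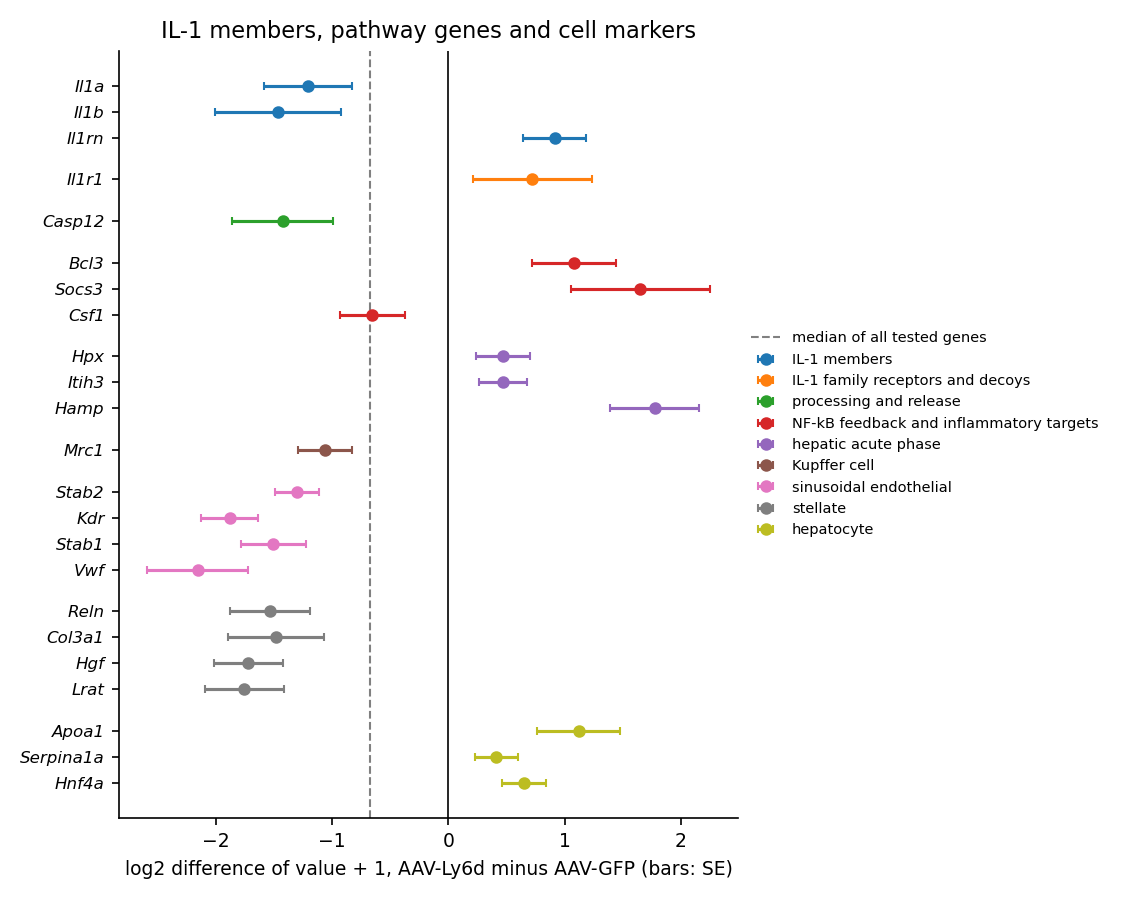
Log2 difference of value + 1 (x axis, AAV-Ly6d minus AAV-GFP, bars are SE from limma) for Il1a, Il1b and Il1rn and for named genes of the pathway and cell marker lists (rows, colour by list); the dashed line is the median of all tested genes at -0.67. The ligands lie below 0, as do Casp12, Csf1, Mrc1 and the endothelial and stellate markers. Il1rn lies above 0, as do Il1r1, Bcl3, Socs3, Hamp, Itih3, Hpx and the hepatocyte markers. Of all tested genes 60.7% lie below 0.

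The genes whose pattern over the 6 libraries was most like each member differed between the members. Likeness was Pearson's r of log2(value + 1) among 1389 named genes with a mean of at least 20, and it is a description, since most genes of the table share a difference between the groups. For Il1a the nearest were Tsc22d1 (r 0.99), Gatm (0.99), Ncald (0.99), Rspo3 (0.98) and Dusp6 (0.98). Rspo3, a Wnt enhancer, shared the higher value of AAV-Ly6d replicate 3 with Il1a, at 45.7, 39.9 and 74.0 in AAV-Ly6d after 97.7, 96.8 and 101 in AAV-GFP.

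For Il1b the nearest were Itgal (0.97), Adgre4 (0.97), Neurl3 (0.96), Prkcb (0.96) and Akap13 (0.95). Itgal, the alpha chain of the leukocyte integrin LFA-1, held 471, 377 and 266 in AAV-GFP and 152, 211 and 180 in AAV-Ly6d. Like Il1b, it was lowest among the controls in replicate 3. Adgre4, a receptor of myeloid cells, held 250, 193 and 159 and then 99.2, 151 and 133 in the same order.

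For Il1rn the nearest included Rrp15 (0.99), Upp2 (0.99), Psmd14 (0.98) and Ran (0.98). Upp2, a liver uridine phosphorylase, held 3276, 3435 and 3769 in AAV-GFP and 7525, 5819 and 6323 in AAV-Ly6d. Values of r above 0.9 were reached by 75 of the compared genes for Il1a, 23 for Il1b and 100 for Il1rn. Over the 6 libraries r was 0.79 between the ligands, -0.82 between Il1a and Il1rn and -0.89 between Il1b and Il1rn. After removal of the group means it was 0.41, 0.04 and -0.79.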

How the data were processed

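Liver RNA sequencing was analysed in 3 AAV-GFP and 3 AAV-Ly6d libraries. The authors deposited normalised read counts, used here as a non-negative signal. In each column all values (100%, within 0.001) were whole multiples of 1 step, which recovers reads. The step of AAV-Ly6d replicate 2, 0.997, is too near 1 for an automatic check, and its reads were recovered the same way. Bowtie 0.12.2 and mm10 are listed without a role, per the submitters' processing notes. The counter, normalisation and the rule that chose the 1834 genes are not stated there. Because those genes mostly separate the groups, adjusted p-values inside the table understate the error.

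Symbols, coordinates and lengths came from GENCODE M21 on GRCm38, and 1833 of 1834 identifiers had a symbol. The main test was limma 3.58.1 in R 4.3.3 (mean-variance trend, log2(value + 1)) on the 1780 genes that reached a value of 1 in 3 or more libraries. A gene rose or fell at a Benjamini-Hochberg adjusted p under 0.05, and such fold changes understate the change of low genes. Recovered reads entered edgeR 4.0.16 and DESeq2 1.42.0 as alternatives, and the limma step was tested on simulated data. Named were the 3 genes, Ly6d, up to 6 measured genes per pathway list and 4 per cell marker list by mean value, and the 5 most alike per member, of which 1 is not reported here. The genes and lists were chosen with earlier results of these data known.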

Additional observations from a re-analysis of the deposited data

How the results depend on the processing

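The directions of Il1a, Il1b, Il1rn and of the ligand to antagonist ratio held under every alternative tried for them. All alternatives reuse the libraries in which the genes were chosen for these directions, so they describe the processing only. A length factor is the same in every library and could hardly move the difference of the ratio. The log2 difference of Il1rn was 0.91, and it was 1.25 after rescaling by the median ratio, 1.22 in edgeR with TMM factors and 0.55 per 1000000 reads of the table. Limma called 782 genes over the table. On the deposited scaling edgeR called 465 and DESeq2 1347, and edgeR with TMM factors called 967. Leaving out 1 library gave 0 to 607 calls. Dropping AAV-GFP replicate 1 or 3 left 134 or 139, and dropping AAV-Ly6d replicate 2 or 3 left 104 or 19. The 0 arose without AAV-Ly6d replicate 1, where 773 genes had an unadjusted p under 0.05 in limma, and no other tool was run there. Of the 21 tested list genes 14 were called, and 0 to 13 with 1 library left out. The count was 8 or 9 on dropping AAV-GFP replicate 1 or 3, 9 or 1 on dropping AAV-Ly6d replicate 2 or 3, and 0 on dropping AAV-Ly6d replicate 1, so no list gene was called without that library. With the replicate block 48 genes and 8 list genes were called. In the labels nothing but the number ties same-numbered libraries. Their deviations from the group means correlated at -0.02, -0.05 and -0.06 across genes, which cannot settle whether they share a batch or a pairing. With 15 to 187 reads per library for these 3 genes, counting error limits single values, most for the ligands in AAV-Ly6d.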

Other observations

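Beside these genes and Il1r1, 6 genes named for interleukin receptors were among the tested genes, and they were picked by symbol after their values were seen. Il6ra, the IL-6 receptor chain through which hepatocytes take up acute phase signals, rose by 0.96 on the log2 scale (SE 0.26, limma adjusted p = 0.0400), from 1247 ± 429 in AAV-GFP to 2349 ± 327 in AAV-Ly6d. Il17rb, a receptor of IL-25, rose by 0.96 (adjusted p = 0.0463 in limma), with 157.7 ± 53.2 and 302 ± 72.1, although its lowest AAV-Ly6d library was only 1.04 times the highest control library. Il13ra2, a decoy receptor of IL-13, fell by 2.69 on the log2 scale (SE 0.71, adjusted p = 0.0381 in limma). It held 22.3, 10.8 and 19.4 in AAV-GFP and 3.89, 0 and 3.26 in AAV-Ly6d. In these AAV-Ly6d libraries 1 read was worth 0.972, 0.997 and 1.09. The Il13ra2 values there lie near the floor, and its fold change depends on the 1 added before the log2. Il17ra, Il15ra and Il17rd did not pass, with log2 fold changes of 0.54, 0.48 and -1.32 (adjusted p = 0.0618, 0.0625 and 0.0643 in limma). No gene of the table passed in limma without AAV-Ly6d replicate 1. All 6 had groups that did not overlap, as did 84.5% of the tested genes.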
